A study of Mus musculus with 66 samples.

Results

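The spinal cord was compared with the brain in adult wild-type C57BL/6J mice, with both tissues taken from the same animals. The 6 libraries were chosen by strain and tissue from the 66 libraries of a study of mice with spontaneous *Rorb* mutations, and they comprise 3 spinal cord libraries and 3 brain libraries from 3 animals. No animal carried a mutant allele or received a treatment, and all were 8.0 weeks old, 2 female (replicates 1 and 2) and 1 male (replicate 3). Each brain sample was a hemisected brain, cut sagittally and snap-frozen, and each cord was flushed from the vertebral column under fluid pressure, so that either tissue is a mixture of many cell types. The same contrast was run in wild-type DBA/1J mice, an inbred strain represented by 3 animals aged 8.4 to 8.9 weeks, 2 male and 1 female, to see which differences recurred.

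Messenger RNA selected by its poly(A) tail was sequenced, and the deposited values are estimated counts per gene. The C57BL/6J brain libraries held 37618144 to 54446911 counts and the cord libraries 42851690 to 47653578. Levels within a gene are given below as CPM, the count of a gene relative to its library total after scaling for library composition, and levels compared between genes or summed over a list as TPM, which also corrects for transcript length. One identifier without a symbol took 3.04% to 8.51% of the brain counts and 1.76% to 4.53% of the cord counts, with overlapping values in the tissues. Mitochondrial transcripts made up 6.19% to 7.03% of counts in the brain and 6.23% to 6.88% in the cord. In bulk tissue, fewer cells of a type and less RNA per cell cannot be told apart, which applies to every difference below.

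The brain and the cord develop from a single neural tube. Its length is marked out by Hox genes, transcription factors arranged in 4 chromosomal clusters whose order along the chromosome matches the order of their anterior limits in the embryo, with lower-numbered paralogues reaching into the hindbrain and higher-numbered paralogues limited to the trunk. The cord holds cholinergic motor neurons that drive muscle, glycinergic and GABAergic interneurons, a dorsal horn that receives sensory input, and thick outer tracts of myelinated axons. The brain hemisection adds the cortex, hippocampus, striatum, thalamus, hypothalamus, midbrain, cerebellum and the choroid plexus, which secretes cerebrospinal fluid.

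Sequence around the annotated start of 5 genes is shown because these genes carry the main contrasts, *Hoxa7*, *Hoxa9* and *Chat* on the cord side and *Slc17a7* and *Gabra6* on the brain side. Each run covers 250 bases before and 50 bases after the start in RefSeq, build GRCm38.p6, 5′ to 3′ on the gene's own strand. Capitals mark CG dinucleotides, the sites that DNA methylation uses in mammals. Methylation was not measured here.
Hoxa7, chr6:52218524-52218823, minus strand: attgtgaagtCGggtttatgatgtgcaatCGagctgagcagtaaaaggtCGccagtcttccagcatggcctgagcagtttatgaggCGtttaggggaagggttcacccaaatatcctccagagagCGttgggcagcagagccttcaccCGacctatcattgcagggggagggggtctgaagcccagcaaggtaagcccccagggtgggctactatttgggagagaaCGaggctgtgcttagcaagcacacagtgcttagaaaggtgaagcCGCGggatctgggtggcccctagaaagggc
Hoxa9, chr6:52227321-52227620, minus strand: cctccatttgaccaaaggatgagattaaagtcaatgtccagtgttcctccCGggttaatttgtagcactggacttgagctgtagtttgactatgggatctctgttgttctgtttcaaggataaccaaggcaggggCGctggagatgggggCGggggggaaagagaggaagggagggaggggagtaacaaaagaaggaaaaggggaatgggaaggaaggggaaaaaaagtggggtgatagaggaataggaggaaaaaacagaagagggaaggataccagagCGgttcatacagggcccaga
Chat, chr14:32465860-32466159, minus strand: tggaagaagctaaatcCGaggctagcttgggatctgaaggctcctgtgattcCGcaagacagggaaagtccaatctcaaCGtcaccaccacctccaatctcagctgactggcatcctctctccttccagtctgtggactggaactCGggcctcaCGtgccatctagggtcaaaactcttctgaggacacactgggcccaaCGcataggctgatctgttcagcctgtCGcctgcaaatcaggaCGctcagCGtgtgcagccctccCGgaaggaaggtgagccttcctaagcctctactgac
Slc17a7, chr7:45163671-45163970, plus strand: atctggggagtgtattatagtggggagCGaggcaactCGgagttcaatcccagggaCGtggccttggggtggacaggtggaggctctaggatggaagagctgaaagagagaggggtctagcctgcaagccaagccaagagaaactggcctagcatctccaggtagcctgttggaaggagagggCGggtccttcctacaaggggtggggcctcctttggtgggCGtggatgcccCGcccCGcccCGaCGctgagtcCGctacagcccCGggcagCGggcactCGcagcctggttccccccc
Gabra6, chr11:42321023-42321322, minus strand: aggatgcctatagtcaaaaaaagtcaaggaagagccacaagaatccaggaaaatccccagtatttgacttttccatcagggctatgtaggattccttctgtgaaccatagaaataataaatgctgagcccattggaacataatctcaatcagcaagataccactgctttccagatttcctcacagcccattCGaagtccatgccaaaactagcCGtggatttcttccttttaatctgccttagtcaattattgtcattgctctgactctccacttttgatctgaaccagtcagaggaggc
The window of *Slc17a7* held 13 CG dinucleotides and that of *Gabra6* held 2, although both genes were among the most strongly brain-biased of the data. Of 22862 genes with a window in the table, 1 per gene, 37.7% held at least as many CG dinucleotides as *Slc17a7* and 84.4% at least as many as *Gabra6*. The 3 windows of the cord-biased genes lay between, with 9 in *Hoxa7*, 4 in *Hoxa9* and 10 in *Chat*. The 22862 windows, with a median of 7, include genes not tested here. Over the 9233 tested protein-coding genes with a window the median was 20, above each window shown. It was 14 for genes over 2-fold higher in cord and 15 for those over 2-fold higher in brain.

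Most of the expressed genome differed between the tissues, although usually by little. Of 17647 genes tested, 9829 (55.7%) passed edgeR's quasi-likelihood test with the animal as a block at a Benjamini-Hochberg adjusted p of 0.05, 4882 (27.7%) higher in cord and 4947 (28%) higher in brain. The median size of the difference among called genes was 0.56 on the log2 scale, and the median log2 fold change over all tested genes was -7.2e-05. Over 2-fold differences were called for 1120 genes higher in cord (6.35%) and 1687 higher in brain (9.56%). Over 8-fold, 112 genes were higher in cord and 344 in brain. The cord and brain libraries did not overlap for 11189 of the tested genes (63.4%), and 314 of the called genes did overlap. These shares are the background against which every gene group below is to be read. Replicates were close, with a median coefficient of variation of 6.2% among brain libraries and 4.94% among cord libraries over 14063 genes above 1 CPM in both tissues.

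**Figure D1:**
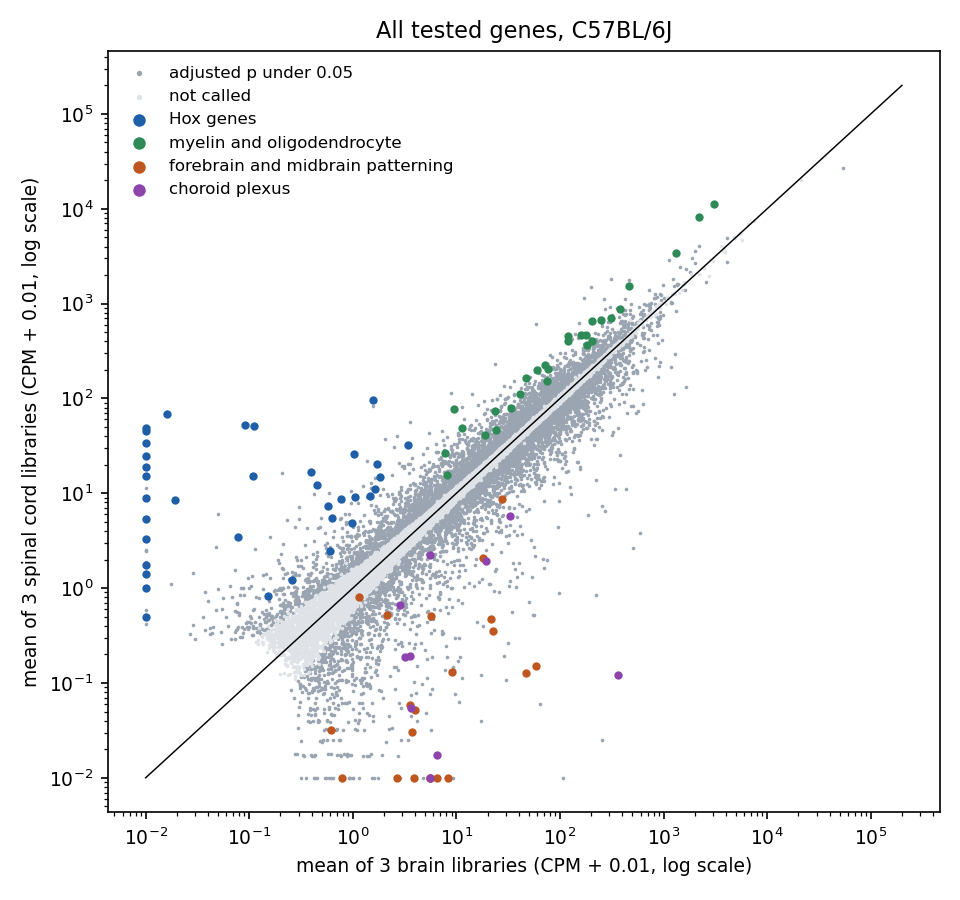
Mean level of each tested gene in the 3 spinal cord libraries (vertical axis) against the 3 brain libraries (horizontal axis), both in CPM plus 0.01 on log scales, with the line of equal level. Hox genes sit above the line, many of them at 0 in brain, while forebrain and midbrain patterning genes and choroid plexus genes sit below it; myelin genes lie above the line.

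The labelled tissues were checked against 3 defining genes. *Hoxa7*, a trunk Hox gene, measured 50.1, 51.0 and 53.9 CPM in the 3 cords and 0.055, 0.227 and 0.018 CPM in the 3 brains (log2 fold change 9.03 ± 0.20 SE, adjusted p = 6.86e-13). *Chat*, which encodes the enzyme that makes acetylcholine, measured 19.96, 18.07 and 23.65 CPM in cord and 3.62, 3.70 and 2.93 CPM in brain (log2 fold change 2.60 ± 0.13, adjusted p = 8.00e-10). *Slc17a7*, the vesicular glutamate transporter VGLUT1 of cortical, hippocampal and cerebellar granule neurons, measured 4.90, 3.33 and 3.08 CPM in cord and 497.2, 635.3 and 626.0 CPM in brain (log2 fold change -7.26 ± 0.15, adjusted p = 3.81e-13). The *Hoxa7* value rests on few brain counts and was 10.51 without replicate 2 and 8.38 without replicate 3. All 3 genes separated the 6 libraries without overlap in the direction that the labels give.

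The Hox genes were the most extreme cord-enriched group. Of 39 listed Hox genes, 36 had enough counts to be tested, and 36 of these 36 were higher in cord by over 2-fold, against the background of 6.35%. Their median log2 fold change was 5.63 with the genes at 0 in brain set to their lower bounds. The 13 genes at 0 in brain passed the count filter through the cord libraries alone, so that they could only come out higher in cord. Summed over the 39 genes, the level was 23.7, 23.4 and 14.8 TPM in the 3 brains and 693.9, 711.4 and 770.6 TPM in the 3 cords, a 35.2-fold difference of the means. The 3 genes below the count filter were *Hoxb1*, *Hoxd12* and *Hoxd13*, the last with 30 counts over the 3 cords and 0 over the 3 brains.

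The size of the difference followed the paralogue number. Paralogues 1 to 5 (14 tested) were present in brain at a summed 15.96 ± 3.99 TPM (SD, n = 3) against 140.8 ± 10.01 TPM in cord, with a median log2 fold change of 3.13. Paralogues 6 to 8 (8 tested) were at 4.65 ± 1.79 TPM in brain and 332.0 ± 16.8 TPM in cord, with a median of 6.68. Paralogues 9 to 13 (14 tested) were at 0.01 TPM in brain and 252.5 ± 14.6 TPM in cord. The whole posterior set gave 2 counts in the 3 brain libraries together, and 12 of its 14 tested members were at 0 counts in all 3. Among the anterior paralogues, *Hoxa2* had the smallest difference of the family, at 0.80, 0.54 and 0.42 CPM in brain and 2.08, 2.31 and 2.93 CPM in cord (log2 fold change 2.08 ± 0.29, adjusted p = 3.83e-05). *Hoxb5* measured 3.34, 3.88 and 2.91 CPM in brain and 32.4, 31.3 and 32.1 CPM in cord (log2 fold change 3.25 ± 0.10).

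**Figure D2:**
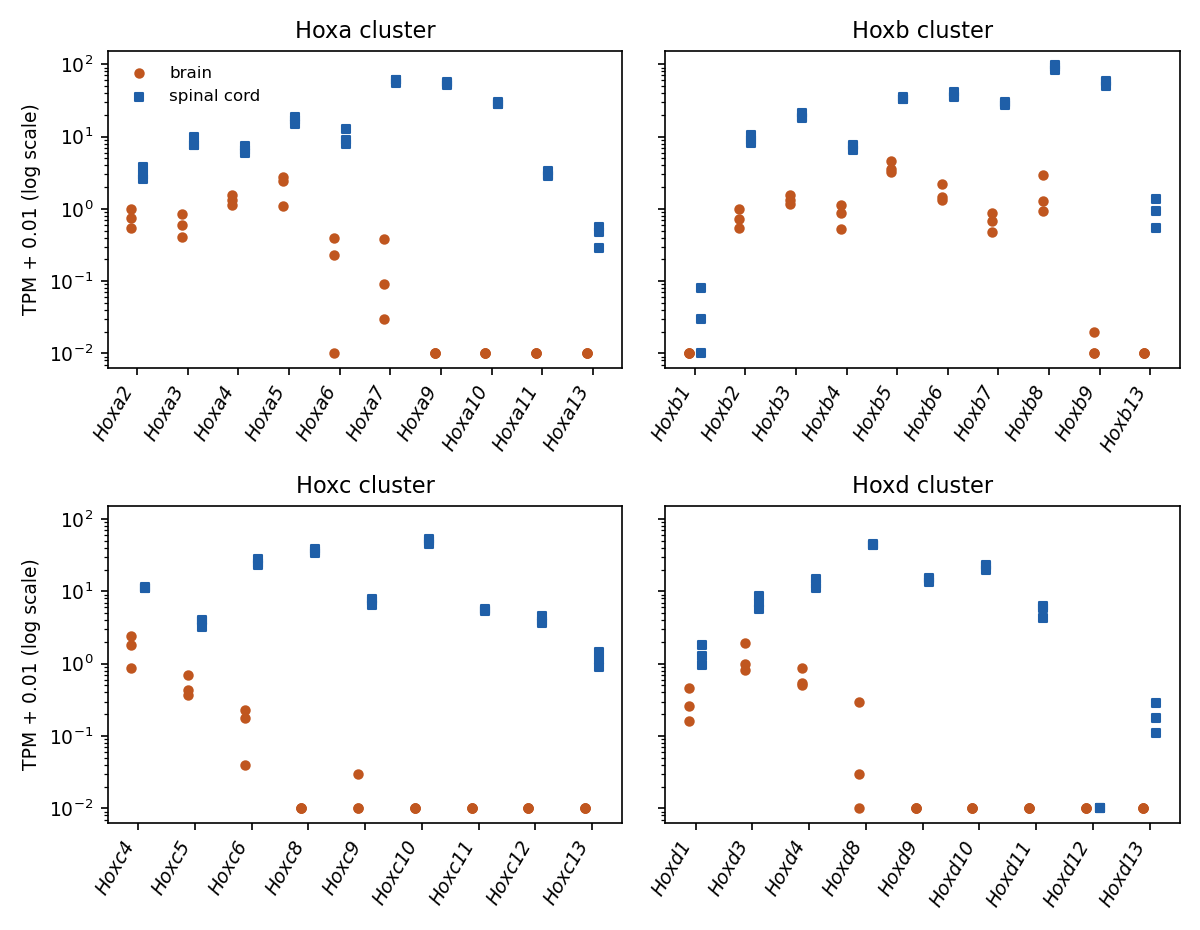
Level of the Hox genes shown, in TPM plus 0.01 (log scale) in the 3 brain libraries (circles) and 3 spinal cord libraries (squares) of C57BL/6J, in chromosomal order within the 4 clusters. Brain values are at 0, or rest on 1 count, from paralogue 9 onward, while cord values peak between paralogues 7 and 10 and fall again toward paralogue 13.

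Within the cord, the levels peaked in the middle of the clusters. *Hoxb8* was the most abundant, at 91.2 TPM, followed by *Hoxa7* at 58.5, *Hoxb9* at 55.1, *Hoxa9* at 54.5 and *Hoxc10* at 49.5 TPM. At the posterior end of its cluster *Hoxa13* averaged 0.437 TPM. *Hoxa9*, whose promoter window is given above, measured 50.6, 46.5 and 48.6 CPM in cord and had no count in any brain library. Taken against a floor of 3 counts over the 3 brains, it was at least 2180-fold higher in cord. *Hoxc10* was at least 2030-fold higher and *Hoxc8* at least 1510-fold higher by the same rule. *Hoxb9* had 1 count in brain against 9272 in cord, a ratio of 9200 with an exact 95% counting interval of 1650 to 363000. It was also the gene with the smallest adjusted p among those higher in cord (2.12e-14).

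Transcripts other than the listed Hox genes shared this pattern. *Gm53* measured 11.32, 11.11 and 12.03 CPM in cord and 0 in each brain. *Gm28230*, which had no position in the annotation used, measured 17.0, 16.8 and 14.8 CPM in cord and at most 0.454 CPM in brain. *Hotair*, a long noncoding RNA of the Hoxc cluster that was singled out after its values were seen, measured 3.32, 1.56 and 2.55 CPM in cord and 0 in each brain. Genes inside the Hox clusters overlap each other, and RSEM was run with default parameters, which do not use strand, so reads of overlapping and antisense transcripts cannot be told apart.

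Genes that pattern the anterior brain showed the reverse. Of 21 tested transcription factors of the forebrain and midbrain, 20 were higher in brain by over 2-fold, against the background of 9.56%, and none was higher in cord. The median log2 fold change was -6.15 with bounds. The 7 members with no count in cord passed the count filter through the brain libraries alone, so that they could only come out higher in brain. *Tbr1*, a cortical projection neuron factor, measured 41.3, 61.8 and 72.4 CPM in brain and 0.125, 0.212 and 0.089 CPM in cord. *Nr2e1* and *Six3* had no count in the 3 cords, which places them at least 376-fold and at least 300-fold lower there. *Pax6* was 3.17-fold higher in brain and still present in cord at 8.52, 9.06 and 8.34 CPM. *Sim1* did not pass the test, at 1.24, 1.16 and 0.995 CPM in brain and 0.872, 0.731 and 0.777 CPM in cord (adjusted p = 0.154).

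Markers of motor neurons were raised in cord as a group. Of 16 tested genes, 15 were higher in cord, 14 of them by over 2-fold, with a median log2 fold change of 3.54 and a summed level of 55.3 ± 2.5 TPM in brain and 355.2 ± 20.98 TPM in cord. The cholinergic set moved together with *Chat*. *Slc18a3*, the vesicular acetylcholine transporter, measured 2.60, 2.50 and 2.30 CPM in brain and 30.2, 29.2 and 32.8 CPM in cord (log2 fold change 3.65 ± 0.10). *Slc5a7*, which takes choline back into the terminal, measured 15.99, 12.84 and 13.32 CPM in brain and 114.1, 106.1 and 115.0 CPM in cord (log2 fold change 3.00 ± 0.07). These genes also mark cholinergic neurons of the forebrain and brainstem, and their brain levels were well above 0.

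*Prph*, encoding the intermediate filament peripherin of neurons whose axons leave the central nervous system, measured 2.68, 2.86 and 2.40 CPM in brain and 40.1, 39.7 and 41.3 CPM in cord (log2 fold change 3.94 ± 0.09, adjusted p = 7.01e-13). *Chodl*, a marker of fast motor neurons, was 18.5-fold higher in cord, at 36.6, 34.0 and 40.9 CPM. *Calca*, which encodes calcitonin and the peptide CGRP, was 16.1-fold higher, at 22.7, 21.1 and 22.1 CPM in cord. *Mnx1* (HB9), a motor neuron identity factor, measured 1.27, 1.39 and 1.66 CPM in cord and had counts in only 1 of the 3 brains. *Uts2*, which encodes urotensin II, measured 6.34, 6.13 and 5.86 CPM in cord and at most 0.083 CPM in brain. *Isl1* was the exception, at 2.13, 2.16 and 2.93 CPM in brain and 2.43, 1.23 and 1.80 CPM in cord (log2 fold change -0.43 ± 0.23, adjusted p = 0.128). Without replicate 1 it was called lower in cord at a log2 fold change of -0.75. *Isl1* is also used by striatal and hypothalamic neurons. Its relative *Isl2* had 64, 75 and 69 counts in the 3 cords against 4, 1 and 3 in the 3 brains (log2 fold change 4.62, and 5.25 without replicate 1).

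Factors of spinal interneurons were divided. Of 19 tested genes, 11 were higher in cord (10 by over 2-fold), 3 were higher in brain and 5 did not pass the test. *Drgx*, a dorsal horn factor, measured 0.525, 0.499 and 0.700 CPM in brain and 10.07, 10.35 and 10.03 CPM in cord (log2 fold change 4.12 ± 0.16). *Pax8*, *Lmx1b* and *Pax2*, which mark dorsal or inhibitory populations, were 11.1-fold, 8.98-fold and 6.66-fold higher in cord. *Lbx1* rose from 1.37 ± 0.18 CPM in brain to 9.13 ± 1.28 CPM in cord (SD, n = 3). *Shox2*, *Gata3* and *Lhx1* were the genes higher in brain, *Shox2* at 11.6, 10.2 and 8.22 CPM in brain and 3.37, 3.11 and 3.35 CPM in cord. Each of the 3 is known from brain nuclei as well as from the cord.

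Peptides and receptors linked to the dorsal horn split almost evenly, with 11 of 21 higher in cord, 9 higher in brain and 1 not called. *Nmu*, encoding neuromedin U, measured 0.083, 0.136 and 0.092 CPM in brain and 2.16, 3.21 and 2.44 CPM in cord (log2 fold change 4.62 ± 0.33). *Tac2*, the neurokinin B precursor, was 6.50-fold higher in cord, and *Tacr1*, the substance P receptor, 2.77-fold. *Oprm1*, the μ opioid receptor, measured 5.94, 5.88 and 5.18 CPM in brain and 13.6, 13.4 and 13.6 CPM in cord. The peptides that cortical interneurons also use went the other way. *Cck* was 5.402-fold and *Npy* 2.51-fold higher in brain, while *Sst* differed by only 1.26-fold, at 50.01 ± 1.81 CPM in brain and 39.6 ± 1.3 CPM in cord.

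Glycine is the main fast inhibitory transmitter of cord and brainstem, whereas GABA dominates in the forebrain. Of 8 tested genes of glycine transmission, 5 were higher in cord and none was higher in brain. *Slc6a5*, the neuronal glycine transporter GlyT2, measured 71.68, 60 and 46.21 CPM in brain and 606.8, 611.1 and 610.3 CPM in cord (log2 fold change 3.38 ± 0.10, adjusted p = 6.90e-12). *Glra1*, the adult α subunit of the glycine receptor, measured 30.9, 22.5 and 17.6 CPM in brain and 222.8, 235.3 and 232.4 CPM in cord (log2 fold change 3.32 ± 0.12). The brains spread more widely than the cords for both genes, with replicate 1 highest and replicate 3 lowest. The glial transporter *Slc6a9* was 3.28-fold and the β subunit *Glrb* 1.57-fold higher in cord. *Gphn*, the gephyrin scaffold shared by glycine and GABA-A receptors, measured 70.3 ± 1.8 CPM in brain and 76.4 ± 3.1 CPM in cord (adjusted p = 0.0888).

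Genes of GABA neurons leaned toward brain, with 8 of 13 higher in brain, 3 higher in cord and 2 not called. The enzymes that make GABA were higher in brain, *Gad1* at 431.4 ± 12.8 CPM against 189.8 ± 5.3 CPM in cord and *Gad2* at 278.2 ± 7.3 CPM against 154.0 ± 0.9 CPM. *Slc32a1*, the vesicular transporter that loads both GABA and glycine, went the other way, at 84.4, 87.6 and 76.2 CPM in brain and 125.2, 136.6 and 126.6 CPM in cord (log2 fold change 0.65 ± 0.06, adjusted p = 3.43e-07). *Lhx6*, a factor of cortical interneurons from the ventral forebrain, was 62.4-fold higher in brain, and the peptide gene *Vip* 5.78-fold.

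The subunits of the GABA-A receptor differed one by one. Of 15 tested, 9 were higher in brain and 5 in cord. The α6 subunit *Gabra6*, which is limited to cerebellar granule cells and a few related neurons, measured 127.5, 104.9 and 90.6 CPM in brain and had no count in cord, at least 4760-fold lower. The δ subunit *Gabrd* had 46, 16 and 9 counts in the 3 cords against 2015, 2515 and 2821 in the 3 brains (log2 fold change -6.72, and -7.56 without replicate 1). The α4 subunit *Gabra4* was 4.55-fold higher in brain. The α2 and α3 subunits were modestly higher in cord, *Gabra2* at 84.1 ± 2.0 CPM against 65.9 ± 10.7 CPM and *Gabra3* at 147.8 ± 5.7 CPM against 114.9 ± 8.5 CPM.

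Excitatory transmission also used other family members. Of 23 tested glutamate receptor genes, 17 were higher in brain, 4 were higher in cord and 2 did not pass. *Grin2b*, an NMDA receptor subunit, measured 734.0, 909.1 and 1005 CPM in brain and 169.6, 167.1 and 165.5 CPM in cord (log2 fold change -2.39 ± 0.08). The obligatory subunit *Grin1* differed by only 1.24-fold. *Grin3b*, an NMDA subunit known from motor neurons, measured 0.525, 0.159 and 0.369 CPM in brain and 3.76, 4.72 and 4.28 CPM in cord (log2 fold change 3.63 ± 0.30), and *Grin2d* was 1.85-fold higher in cord. The AMPA subunits *Gria1* and *Gria2* were 2.62-fold and 2.06-fold higher in brain, and the presynaptic receptor *Grm2* was 11.1-fold higher.

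Several gene pairs that fill the same role at the synapse or the membrane had opposite differences. These pairs were put together after the values were seen, from lists written down earlier. Synaptic vesicle genes as a list did not lean to one tissue, with 8 of 16 higher in brain, 5 higher in cord and a summed level of 6645 ± 560 TPM in brain and 6622 ± 146 TPM in cord. Synaptotagmin 1 (*Syt1*), the calcium sensor of forebrain terminals, made up 78.8%, 84.3% and 87.9% of the summed *Syt1* and *Syt2* TPM in the 3 brains and 21.8%, 22% and 20.3% in the 3 cords. *Vamp2* made up 77.0 ± 2.7% of the *Vamp2* and *Vamp1* sum in brain and 24.1 ± 0.5% in cord (SD, n = 3). The share of *Sv2b* against *Sv2c* was 82.1 ± 4.0% in brain and 31.7 ± 0.2% in cord. *Cplx2* made up 44.3 ± 0.5% of the complexin pair in brain and 10.6 ± 0.3% in cord. In each of these 4 pairs every brain library had a higher share than every cord library.

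**Figure D3:**
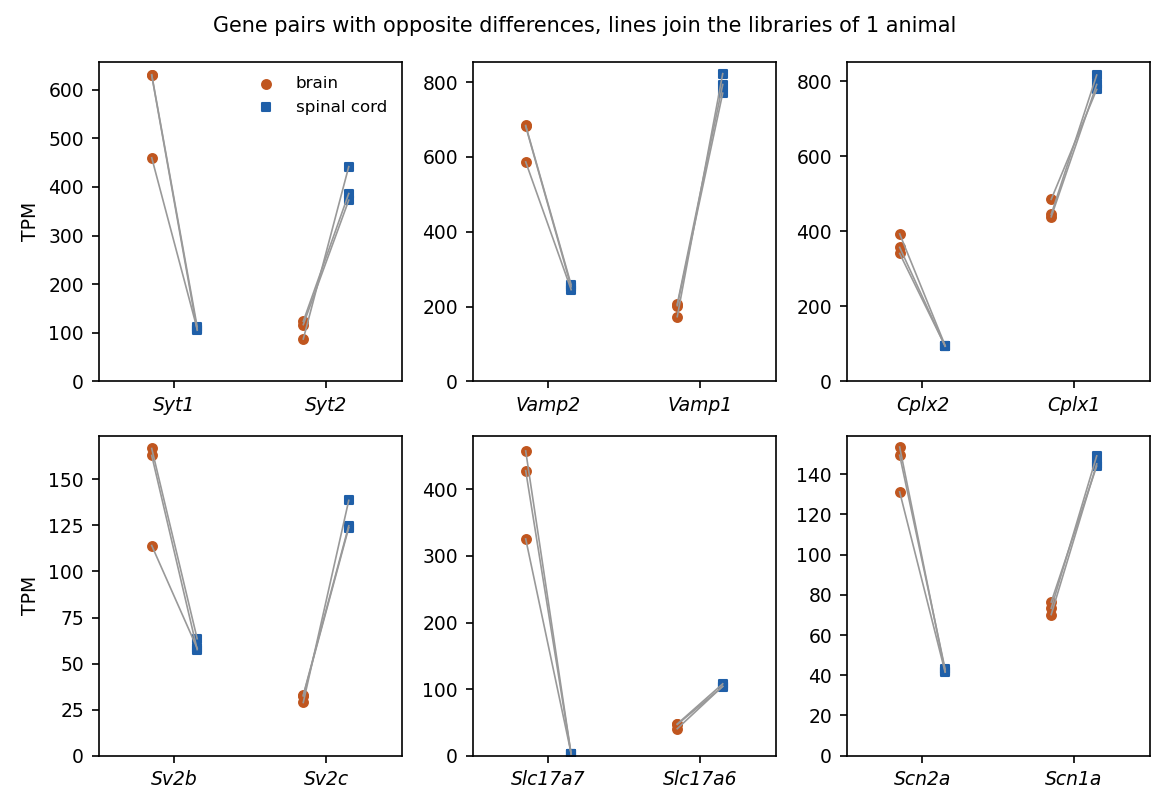
Level in TPM (linear axes from 0) of 6 gene pairs in the brain (circles) and spinal cord (squares) of each C57BL/6J animal, with lines joining the libraries of 1 animal. In every pair the first gene was lower and the second higher in cord in 3 of 3 animals.

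*Syt1* was 5.51-fold higher in brain (adjusted p = 1.97e-11) and *Syt2* 3.31-fold higher in cord (adjusted p = 7.20e-10). *Vamp1* measured 291.6, 270.5 and 238.9 CPM in brain and 1097, 1110 and 1117 CPM in cord. *Stx1a*, a membrane partner of these proteins, was 7.65-fold higher in brain. *Rab3a*, a general vesicle protein, was at 309.4 ± 11.9 and 326.8 ± 5.4 CPM (adjusted p = 0.242). The vesicular glutamate transporters were split in the same manner. *Slc17a7* made up 89.8 ± 2.2% of its sum with *Slc17a6* in brain and 2.34 ± 0.49% in cord. *Slc17a6* (VGLUT2), the transporter of thalamic, brainstem and spinal excitatory neurons, was 2.39-fold higher in cord, at 247.9, 232.9 and 228.3 CPM.

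Voltage-gated ion channels were divided between the tissues. Among 9 tested sodium channel genes, 4 were higher in cord and 5 in brain, with a median log2 fold change of -0.20. *Scn1a* measured 284.5, 286.5 and 284.9 CPM in brain and 571.7, 549.5 and 565.2 CPM in cord, whereas *Scn2a* measured 439.6, 486.7 and 486.8 CPM in brain and 137.6, 135.5 and 139.6 CPM in cord. The β4 subunit *Scn4b* was 2.40-fold higher in cord. Of 16 potassium channel genes, 6 were higher in cord and 10 in brain, with a median of -0.40. Their summed level went the other way, at 1025 ± 53 TPM in brain and 1395 ± 58 TPM in cord, and was higher in every cord. *Kcna1*, found beside the nodes of Ranvier, was 2.10-fold higher in cord. *Kcna4* was 2.83-fold higher in brain.

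The neurofilaments, which fill large axons, rose further. Of 9 cytoskeletal genes, 7 were higher in cord and 2 did not pass the test. *Nefh*, the heavy subunit, measured 188.5, 165.8 and 155.9 CPM in brain and 1150, 1039 and 1236 CPM in cord (log2 fold change 2.75 ± 0.08, adjusted p = 6.36e-12). *Nefm* and *Nefl* were 5.82-fold and 3.83-fold higher in cord. The neuronal cytoskeletal genes *Map2* and *Mapt* did not pass the test, *Map2* at 1498 ± 52 CPM in brain and 1380 ± 51 CPM in cord and *Mapt* at 490.3 ± 7.1 and 478.1 ± 5.6 CPM.

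Genes of myelin and oligodendrocytes, the cells that wrap central axons, were higher in cord without exception. All 28 tested members passed the test, 26 by over 2-fold against the background of 6.35%, with a median log2 fold change of 1.49 and a range from 0.95 to 3.03. Their summed level was 8972 ± 591 TPM in brain and 28530 ± 1217 TPM in cord, a 3.18-fold difference. *Mbp*, encoding myelin basic protein, measured 3338, 3069 and 2744 CPM in brain and 10780, 11530 and 11450 CPM in cord (log2 fold change 1.89 ± 0.09). *Mag*, a myelin protein that faces the axon, was 3.22-fold higher. *Klk6*, a protease of mature oligodendrocytes, showed the largest ratio of the list, at 10.8, 9.44 and 8.51 CPM in brain and 74.3, 78.2 and 81.2 CPM in cord. The lineage factors *Olig2* and *Nkx6-2* showed the smallest, 1.94-fold each.

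Of 7 markers of oligodendrocyte precursors and newly committed cells, 4 were higher in cord and 3 in brain, none by over 2-fold, with a median log2 fold change of 0.21. Their summed level was lower in every cord, at 315.4 ± 20.8 TPM in brain and 217.0 ± 7.0 TPM in cord. *Pdgfra*, the receptor that defines the precursors, measured 59.7, 64.7 and 66.1 CPM in brain and 54.9, 52.7 and 53.2 CPM in cord (log2 fold change -0.24 ± 0.06, adjusted p = 0.00421). *Cspg5* was 1.95-fold and *Ptprz1* 1.48-fold higher in brain. *Gpr17*, of committed precursors, was 1.33-fold higher in cord.

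Cholesterol is a major lipid of myelin and is made locally. All 18 tested genes of its synthesis were higher in cord, 9 of them by over 2-fold, with a median log2 fold change of 1.00 and a summed level of 751.0 ± 45.5 TPM in brain and 1540 ± 73 TPM in cord. *Hmgcs1* measured 239.7, 258.2 and 259.8 CPM in brain and 606.7, 678.1 and 592.7 CPM in cord, and *Idi1* was 2.62-fold higher. In both genes every cord library lay above every brain library.

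Astrocyte markers were unevenly distributed. Of 22 tested genes, 15 were higher in cord, 3 were higher in brain and 4 did not pass, and the summed level was 5362 ± 287 TPM in brain and 8755 ± 200 TPM in cord. *Gfap*, the filament of fibrous astrocytes, measured 208.5, 209.7 and 179.7 CPM in brain and 1450, 1562 and 1511 CPM in cord (log2 fold change 2.92 ± 0.07, adjusted p = 1.50e-12). *Aqp4*, the water channel of astrocyte endfeet, was 3.04-fold higher in cord, *S100b* 3.45-fold and *Agt*, encoding angiotensinogen, 3.33-fold. *Kcnj10*, the glial potassium channel Kir4.1, was at 423.8 ± 48.0 CPM in brain and 1124 ± 35 CPM in cord. The glutamate transporters diverged. *Slc1a3* (GLAST) measured 659.1, 615.1 and 593.9 CPM in brain and 125.1, 118.6 and 124.6 CPM in cord (log2 fold change -2.34 ± 0.06), while *Slc1a2* (GLT-1) was at 3899 ± 170 CPM in brain and 3517 ± 37 CPM in cord (adjusted p = 0.107). *Mfge8* and *Chrdl1* were the other genes higher in brain, by 3.49-fold and 3.98-fold.

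Of 15 microglial markers, 2 were higher in cord, 2 were higher in brain and 11 did not pass the test, against a background of 55.7% called, and the summed level was 372.6 ± 56.7 TPM in brain and 370.3 ± 8.1 TPM in cord. *Cx3cr1* measured 31.5, 37.2 and 38.6 CPM in brain and 33.1, 33.5 and 34.5 CPM in cord (log2 fold change -0.08 ± 0.07, adjusted p = 0.327). *Sall1*, which is listed as a microglial factor but is also used by other glia, was 1.69-fold higher in cord. Without replicate 3, none of the 15 was called higher in brain. Of 12 endothelial genes, 3 were higher in cord and 4 in brain, near the background share, although none by over 2-fold, and *Cldn5*, a tight junction gene, was at 22.7 ± 3.1 and 21.8 ± 1.9 CPM (adjusted p = 0.532). *Mfsd2a*, a lipid transporter of the blood-brain barrier, was the endothelial gene with the largest difference, 1.91-fold higher in cord. Of 8 genes of mural cells, which wrap the vessels, 5 were higher in brain and 2 in cord, and their summed level was 201.7 ± 8.9 TPM in brain and 162.2 ± 3.3 TPM in cord. Hemoglobin *Hbb-bs* from residual blood measured 117.3 ± 5.6 CPM in brain and 132.2 ± 19.1 CPM in cord (adjusted p = 0.0883). Of the 9 genes in the blood list, 4 were higher in brain, each by over 2-fold, and 1 was higher in cord. The 4 were *S100a8*, *S100a9*, *Ngp* and *Slc4a1*, and brain replicate 3 was the highest library for each.

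**Figure D4:**
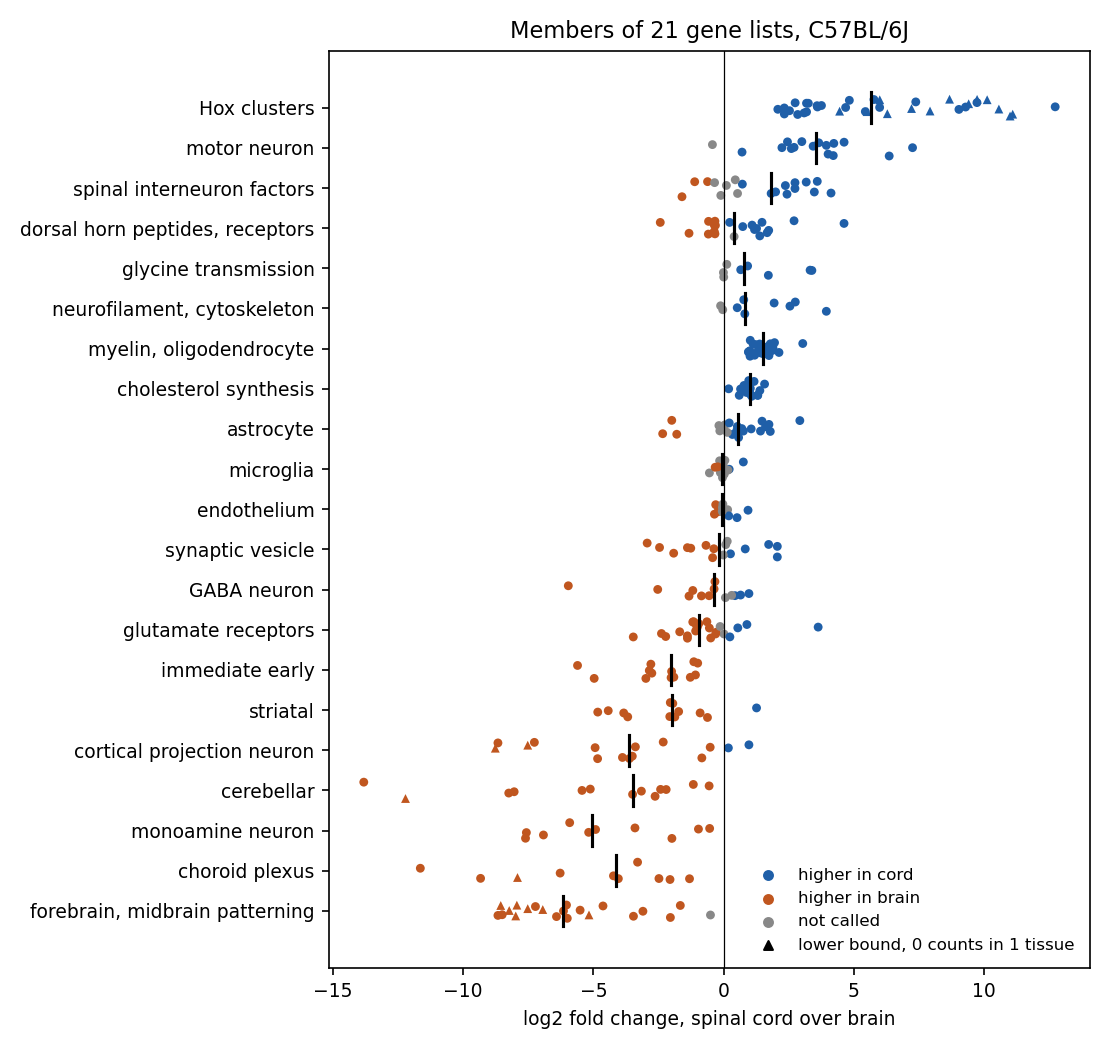
Log2 fold change (spinal cord over brain, horizontal axis) of every tested member of 21 gene lists in C57BL/6J, colored by call, with list medians as bars and lower bounds as triangles for genes with 0 counts in 1 tissue. Hox, myelin and cholesterol lists lie wholly to the right of 0, microglial and endothelial lists lie around 0, and cerebellar, monoamine, choroid plexus and forebrain lists lie wholly to the left.

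All 10 choroid plexus markers were higher in brain by over 2-fold, and their summed level was 765.6 ± 194.3 TPM in brain and 6.75 ± 1.24 TPM in cord, a 113.4-fold difference. *Ttr*, encoding transthyretin, measured 317.2, 446.5 and 329.7 CPM in brain and 0.125, 0.118 and 0.089 CPM in cord (log2 fold change -11.64 ± 0.11), and its adjusted p of 4.70e-16 was the smallest of all genes. *Otx2* had no count in cord, at least 245-fold lower than in brain. Around the central canal of the cord lie ciliated ependymal cells and neurons that touch the fluid. Of 8 genes for these cells, 4 were higher in cord and 4 did not pass, and the summed level was 35.1 ± 8.7 TPM in brain and 61.9 ± 2.5 TPM in cord. *Pkd2l1*, the channel of the fluid-contacting neurons, measured 4.06, 2.86 and 2.49 CPM in brain and 18.8, 18.4 and 18.6 CPM in cord, and its partner *Pkd1l2* was 24.3-fold higher. *Foxj1*, the regulator of motile cilia, was 2.61-fold higher in cord.

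Genes of the meninges were lower in the cord samples. Of 14 tested genes, 12 were higher in brain, 8 of them by over 2-fold, and the summed level was 1661 ± 54 TPM in brain and 819.2 ± 90.2 TPM in cord. Most of the sum was *Ptgds*, which oligodendrocytes also make, at 1500 TPM in brain and 768.1 TPM in cord. *Slc22a6*, a transporter of meningeal fibroblasts, measured 5.30, 6.10 and 5.58 CPM in brain and at most 0.042 CPM in cord (3 counts over the 3 cords). *Igf2* was 6.92-fold and *Ptgds* 1.89-fold higher in brain, while the collagen gene *Col1a2* was at 33.0 ± 1.5 and 31.1 ± 0.9 CPM (adjusted p = 0.269). The cords were flushed out of the column whereas the brains were dissected, so that the collection method and the tissue cannot be told apart for these genes. The part of peripheral tissue in the cord samples was checked with 3 lists. Of the 7 tested Schwann cell genes, 4 were higher in cord and 2 in brain, and the summed level of the list was 65.6 ± 3.0 TPM in brain and 145.6 ± 18.3 TPM in cord. With DESeq2 1 of the 7 was called higher in cord, and without replicate 1 this held for 2 of 6. *Pmp22*, which oligodendrocytes also express, was 3.09-fold higher in cord. At 36.25 TPM in brain and 112.5 TPM in cord, *Pmp22* made up most of the Schwann cell sum in either tissue. Of the genes of dorsal root ganglion neurons only 4 of 8, and of skeletal muscle only 3 of 9, had enough counts to be tested. The summed levels of these last lists stayed between 1.93 and 8.19 TPM in every C57BL/6J library.

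Lists for single brain regions were mostly higher in brain. Every cerebellar gene (13 of 13) was higher in brain, with a median log2 fold change of -3.50. *Fat2*, a cadherin of granule cells, measured 292.8, 270.3 and 193.3 CPM in brain and 0, 0.024 and 0.022 CPM in cord (adjusted p = 1.26e-15). Its 2 counts over the 3 cords against 33008 over the 3 brains gave a ratio of 16600 with a 95% counting interval of 4600 to 137000. *Cbln3*, another granule cell gene, measured 251.8, 243.9 and 171.8 CPM in brain and 0.893, 0.826 and 0.799 CPM in cord. The Purkinje cell gene *Pcp2* had 3, 8 and 2 counts in the 3 cords and was higher in brain (log2 fold change -8.25, and -9.02 without replicate 2), and *Itpr1*, the calcium release channel abundant in Purkinje cells, was 11.3-fold higher. *Pvalb*, which spinal and cerebellar neurons both use, had the smallest difference, at 81.5 ± 9.7 CPM in brain and 55.1 ± 1.2 CPM in cord.

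Cortical, hippocampal and striatal genes were likewise brain-enriched. Of 15 cortical projection neuron genes 13 were higher in brain, of 10 hippocampal genes 9, and of 12 striatal genes 11. The thalamic list was less one-sided, with 5 of 8 genes higher in brain, 2 higher in cord and a summed level of 217.1 ± 14.9 TPM in brain and 191.7 ± 4.6 TPM in cord. *Camk2a*, the postsynaptic kinase, measured 1538, 1639 and 1725 CPM in brain and 135.1, 136.3 and 128.7 CPM in cord (log2 fold change -3.61 ± 0.07). *Nrgn*, encoding neurogranin, was 30.6-fold and the dendritic gene *Ddn* 191.4-fold higher in brain. *Fezf2*, of corticospinal neurons, had no count in cord, at least 434-fold lower than in brain. The cell bodies of these neurons lie in the cortex and their axons run in the cord. The dopamine receptor gene *Drd1* was 28.5-fold and the adenosine receptor gene *Adora2a* 14.3-fold higher in brain, but *Drd2*, which the cord also uses, only 1.54-fold. *Lamp5*, a cortical layer and interneuron marker, went against its list, at 89.0, 99.3 and 97.2 CPM in brain and 189.1, 184.1 and 185.0 CPM in cord, and *Prox1*, of dentate granule cells, was 1.34-fold higher in cord.

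All 10 tested genes of monoamine neurons were higher in brain. Their cell bodies lie in the midbrain and brainstem, and the cord receives their axons. *Slc18a2*, the vesicular monoamine transporter, measured 12.4, 10.4 and 9.54 CPM in brain and 0.166, 0.236 and 0.133 CPM in cord (log2 fold change -5.91 ± 0.19). The serotonin genes varied between brains. *Slc6a4*, the serotonin transporter, measured 7.482, 7.397 and 0.313 CPM and *Tph2*, the serotonin-making enzyme, 16.2, 11.3 and 1.73 CPM in brain replicates 1, 2 and 3. Brain replicate 3 was also lowest for *Gabra6*, *Fat2*, *Cbln3*, *Slc6a5* and *Glra1* and highest for *Tbr1*. The share of each region in the sampled hemisection was not measured. Of 10 tested hypothalamic genes, 7 were higher in brain, among them *Pmch* at 8.48, 9.96 and 13.2 CPM in brain and at most 0.111 CPM in cord, and *Oxt* with 1 count over the 3 cords. *Otp* went the other way, 2.56-fold higher in cord.

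Activity-regulated genes were uniformly lower in cord. All 13 tested immediate early genes were higher in brain, 12 of them by over 2-fold, with a median log2 fold change of -2.02. *Egr1* measured 149.7, 155.5 and 143.3 CPM in brain and 21.6, 24.0 and 19.3 CPM in cord (log2 fold change -2.79 ± 0.06, adjusted p = 6.86e-13). *Arc* measured 117.9, 95.6 and 68.6 CPM in brain and 23.0, 22.8 and 23.3 CPM in cord. *Npas4* and *Nr4a1*, other transcription factors switched on by neuronal activity, were at 13.8 ± 2.5 and 46.8 ± 11.97 CPM in brain and at 3.38 ± 0.25 and 6.43 ± 1.28 CPM in cord. *Dusp1*, which is induced in many cell types, had the smallest difference, 2.00-fold. The time between death and freezing of either tissue is not given in the sources used here, and its part was not tested.

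*Rorb*, the gene mutated in the study's mutant mice, measured 53.5, 51.8 and 61.8 CPM in brain and 40.8, 39.3 and 36.5 CPM in cord (log2 fold change -0.52 ± 0.08, adjusted p = 5.59e-05). *Rora*, abundant in Purkinje cells, was 2.26-fold higher in brain. Of 12 tested genes of retinoic acid handling, 10 were higher in brain and 2 in cord. The summed level of the list was nevertheless higher in every cord, at 166.6 ± 7.0 TPM in brain and 204.5 ± 10.2 TPM in cord. *Crabp1*, a binding protein, was 4.93-fold higher in cord, and *Aldh1a1*, a synthesizing enzyme, 1.73-fold. *Aldh1a2*, the synthesizing enzyme of the meninges, *Crabp2* and *Cyp26b1*, which degrades retinoic acid, were 4.88-fold, 20.7-fold and 5.37-fold higher in brain. Of 13 genes of protein folding in the endoplasmic reticulum, 3 were higher in cord and 6 higher in brain, with log2 fold changes from -0.27 to 0.24, and without the replicate block 2 and 0 were called. *Hspa5* (BiP) measured 347.9, 308.4 and 432.0 CPM in the 3 brains and 339.5, 284.3 and 419.1 CPM in the cords of the same animals, so that the animals differed from each other by more than the tissues did (adjusted p = 0.335).

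A few further genes stood out by their size or their test. *C3*, the central component of complement, measured 1.46, 1.61 and 1.64 CPM in brain and 86.6, 86.5 and 79.6 CPM in cord (log2 fold change 5.73 ± 0.09, adjusted p = 2.77e-14). *Serpinb1b*, a serine protease inhibitor gene, measured 3.92, 3.86 and 3.00 CPM in brain and 59.6, 54.3 and 56.0 CPM in cord. *Aplnr*, the apelin receptor, was 25.0-fold higher in cord and *Spp1*, encoding osteopontin, 3.28-fold, at 102.5, 95.5 and 104.9 CPM. *Spp1* stands in the list of microglial activation, of which 2 of 8 tested genes were higher in cord and 3 in brain, and it is also known from motor neurons. On the brain side, *Cnpy1* measured 73.8, 72.1 and 45.1 CPM in brain and at most 0.104 CPM in cord. *Chrm1*, the M1 muscarinic receptor, was 110.4-fold higher in brain, *Crym* 123.6-fold, *Ankrd63* 153.0-fold and *Smim43* 152.0-fold. *Igfn1* had 536, 831 and 971 counts in the 3 brains and 1, 1 and 2 in the 3 cords. Long genes were more frequent among those over 2-fold higher in brain, 23.3% of which span more than 100 kb in RefSeq, against 14.0% of those over 2-fold higher in cord and 15.5% of all protein-coding genes tested.

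**Figure D5:**
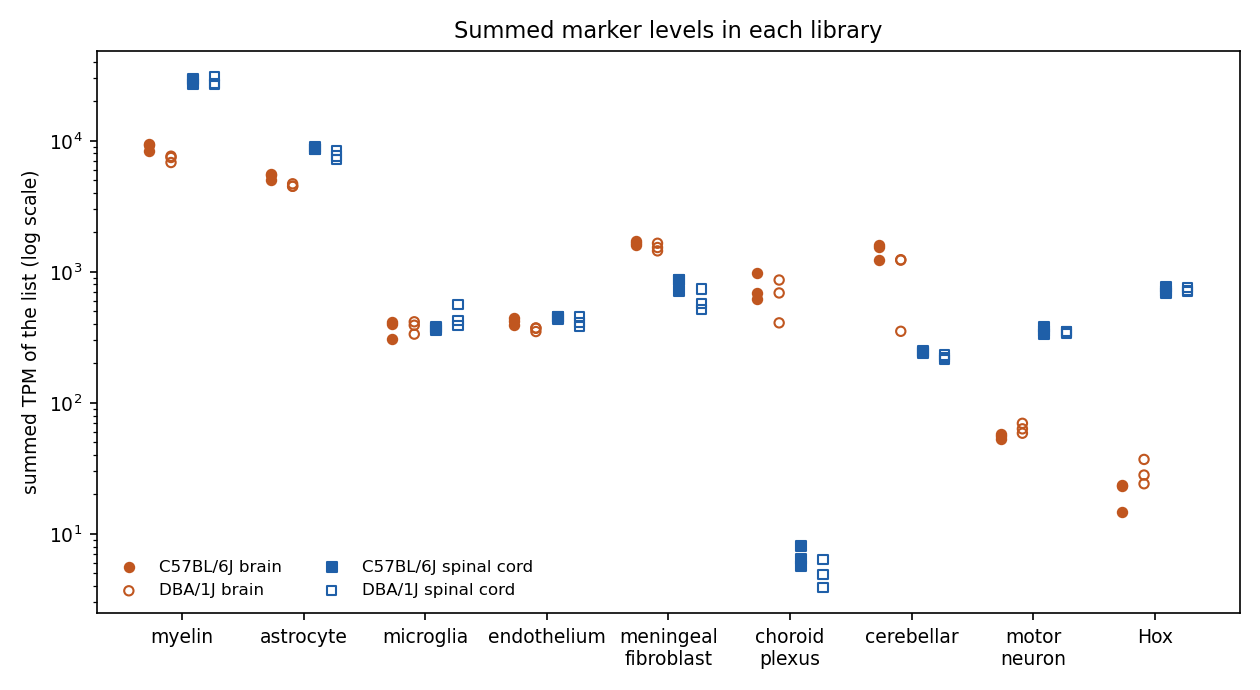
Summed level in TPM (log scale) of 9 gene lists in each of the 12 wild-type libraries, brain as circles and spinal cord as squares, C57BL/6J filled and DBA/1J open. Myelin, astrocyte, motor neuron and Hox sums are higher in every cord, choroid plexus and meningeal sums are higher in every brain, and 1 DBA/1J brain has a low cerebellar sum. In C57BL/6J most of the meningeal sum is *Ptgds*.

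The contrast was then repeated in DBA/1J. One of its brains stood apart beforehand. DBA/1J brain replicate 1 had a cerebellar sum of 351.5 TPM against 1227 and 1237 TPM in the other two, with 6 counts of *Gabra6* against 3722 and 3354 and 2 counts of *Pcp2* against 810 and 794. The fit called 8780 of 17276 genes (50.8%), and 9106 without that animal. Of 9558 genes called in C57BL/6J and tested in DBA/1J, 7513 (78.6%) were called in the same direction and 15 in the opposite one. These 7513 genes were 86.4% of the DBA/1J calls tested in both. Of the 2554 genes over 2-fold apart in C57BL/6J, 2256 (88.3%) were called in the same direction, and 2267 of 2598 (87.3%) without DBA/1J animal 1. Leaving out DBA/1J animal 2 or 3 lowered the share of the 2-fold genes to 79.5% and 81.8%. Across the 16916 genes tested in both strains, which are not independent replicates, Pearson's r of the log2 fold changes was 0.934.

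The gene groups recurred in DBA/1J to different degrees. All 28 myelin genes and all 18 cholesterol genes were called higher in cord again. Of the 36 Hox genes, 33 were called higher in cord, and the other 3 (*Hoxa13*, *Hoxb13* and *Hoxc13*) had too few counts to be tested. The 15 motor neuron genes were called higher in cord again, while *Isl1* was called lower in cord in DBA/1J (log2 fold change -0.88, adjusted p = 0.0316). In other lists, 3 of the 9 endoplasmic reticulum calls, 9 of the 13 cerebellar calls and 11 of the 14 GABA-A receptor calls were made again in the same direction. Over all C57BL/6J calls tested in DBA/1J this share was 78.6%, whereas the cerebellar and GABA-A receptor counts include genes not tested there. Of the cerebellar genes not called again, *Gabra6* and *Pcp2* were not tested in DBA/1J, where 1 brain held little cerebellar RNA, and *Gabra6* also stands among the GABA-A receptor genes. *C3* had a log2 fold change of 5.27 in DBA/1J, *Slc6a5* of 3.07, *Gfap* of 2.75 and *Ttr* of -11.94. The blood list, by contrast, gave none of its 5 C57BL/6J calls again. *S100a8*, a neutrophil gene in that list, measured 0.359, 0.250 and 2.82 CPM in the C57BL/6J brains, so that 1 brain held most of it.

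A test of the difference between the strains called 40 of 18375 genes (0.218%), with 1787 at an unadjusted p under 0.05. *Pxdn*, encoding a peroxidase of the extracellular matrix, was lower in cord in C57BL/6J (log2 fold change -0.54) and higher in cord in DBA/1J (0.32), a difference of 0.86 ± 0.07 SE (adjusted p = 0.00117). *Fcho1*, of clathrin-mediated uptake, also had opposite signs, at -0.50 and 0.24. *Tspan11* was lower in cord in both strains, at 8.52, 6.86 and 8.10 CPM in brain and 0.206, 0.279 and 0.220 CPM in cord in C57BL/6J against 6.43, 10.7 and 7.98 CPM and 2.40, 2.22 and 2.61 CPM in DBA/1J. *Extl1* was lower in cord by -0.34 on the log2 scale in C57BL/6J and by -1.40 in DBA/1J. *Col11a1*, a fibrillar collagen gene, was higher in cord by 1.99 and 1.11. The number of such genes depended strongly on the libraries used, since without replicate 2 of both strains 11 genes were called, 4 of them among the 40.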

How the data were processed

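The analysis covered the 6 C57BL/6J libraries and the 6 DBA/1J wild-type libraries. Per the labels and the study's methods, the authors prepared poly(A)-selected libraries, sequenced paired ends, trimmed reads with Trim Galore, aligned them to GRCm38 with STAR and quantified genes with RSEM at its default parameters, which do not use strand. The deposited expected counts are RSEM estimates in which the authors' pipeline divides reads that fit several genes, and 5.1% of all values in the 12 libraries, zeros included, had a fractional part of any size. The deposited TPM values come from the same RSEM runs and correct for transcript length. Of 45706 identifiers, 41403 had a symbol, and 31193 had a GRCm38 position. No 2 of the 12 libraries (66 pairs) held identical values.

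Expected counts were rounded, filtered with filterByExpr, scaled by TMM and tested with edgeR 4.0.16 in R 4.3.3 by the quasi-likelihood test, with Benjamini-Hochberg adjustment over all genes tested and the animal as a block. Cord and brain were paired by the animal identifier. Same-numbered libraries had correlations of deviations from the group means of 0.0231, 0.0658 and 0.187. Differently numbered libraries ranged from -0.16 to 0.107, so that replicates 1 and 2 did not stand out as pairs by this measure. The strain comparison tested the tissue by strain interaction over 12 libraries. DESeq2 1.42.0, other scalings, no filter, no replicate block, deposited TPM on the log2(TPM + 0.1) scale and leaving out each animal were the alternatives. With the animal as a block, p-values measure how the cord against brain difference varies between 3 animals per strain. Animals of a strain also differ in sex and, in DBA/1J, in age, so that spread includes any effect of these on the tissue difference. Lower bounds take 3 counts over a group as the floor, and intervals are exact at 95%, covering counting error only. Scripts were tested on simulated data.

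The genes named are *Hoxa7*, *Chat* and *Slc17a7*, members of 40 lists (524 symbols), the 15 genes with the largest difference in each direction (at least 10 CPM in the higher tissue, no overlap of libraries), the 5 smallest adjusted p in each direction and the 5 smallest of the interaction. Members and lists were chosen with earlier results of these data known. Genes named outside this rule, and the gene pairs, were chosen after their values were seen. Some members of the lists are not reported here by name, although they are in the counts.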

Additional observations from a re-analysis of the deposited data

Results flagged for a closer look

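The tissue difference itself differed between the strains, by the interaction test of edgeR (DBA/1J minus C57BL/6J, log2), for 7 genes named here. The difference was 0.8571 for *Pxdn*, -1.068 for *Extl1*, 3.285 for *Tspan11*, 0.7287 for *Fcho1* and -0.8848 for *Col11a1*, which have the 5 smallest adjusted p of this test (0.00117, 0.00117, 0.00117, 0.00337 and 0.0146). *Ptgds*, an enzyme and carrier made by meninges and oligodendrocytes, had a difference of -0.4489. *Igfn1*, with 4 counts over the 3 C57BL/6J cords, had a difference of 3.047. Each strain is represented by 3 animals, and the ages of the strains do not overlap, so that age cannot be told apart from strain. Both strains hold both sexes, and the part of sex was not tested.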

How the results depend on the processing

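No gene called in the C57BL/6J contrast was called in the opposite direction under any of the alternatives run. The 9829 calls became 10033 without the replicate block, of which 9692 were among the 9829, 8289 with DESeq2 and 8364 to 9196 when 1 animal was left out. The share of calls higher in cord was 49.7% and ranged from 48.7% to 53.5%. The DBA/1J count of 8780 became 8783 without the replicate block and 6608 to 9106 without 1 animal. The interaction count was less stable, at 40 genes in the analysis reported, 59 without the replicate block, 103 with DESeq2 and 73 with total counts only. With no filter on low counts it was 330, and without 1 animal of each strain it was 11 to 57. Of the 40 genes, 26, 4 and 15 were called again without replicates 1, 2 and 3. The cause was not tested. Among single genes, *P2ry12*, a microglial gene that did not pass the test, ranged from -0.2481 without replicate 1 to 0.1743 without replicate 3. It was called lower in cord without replicate 1. Calls were lost when 1 animal was left out for *Snap25*, *Gabra5* and *Rasgrf2* (replicate 1, at 0.18, 0.13 and 0.12) and for *Tac1* (replicate 3, -0.15). With deposited TPM, 52 of 211 named genes moved by more than 1 SD of the 3 paired log2 ratios. None of the called genes among them changed sign, and a change of sign was not scored for genes not called. Depth limits the ratios of genes with few counts in the lower tissue.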

Other observations

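Some genes were read in 1 strain only, in both tissues. *S100b*, a calcium-binding protein of astrocytes and oligodendrocytes, had 5644 to 22957 counts in the 6 C57BL/6J libraries and 1 count in total over the 6 DBA/1J libraries, against 83669 in C57BL/6J. *Gvin1* had 3130 counts in C57BL/6J and 0 in DBA/1J, and *Trim12a* had 928 and 0. Gm8210 went the other way, with 0 counts in C57BL/6J and 7507 in DBA/1J. These genes were picked after their values were seen, as those with at most 3 counts over 1 strain and at least 100 in each library of the other. Reads of both strains were aligned to a genome of the C57BL/6J strain, and the part of sequence differences between the strains, or of near-identical gene copies, was not tested.

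The immediate early genes varied between DBA/1J brains more than between C57BL/6J brains. Their summed level was 560.6, 660.1 and 208.1 TPM in the 3 DBA/1J brains and 386.9, 404.0 and 314.4 TPM in the 3 C57BL/6J brains. In the cords the sums were 105.9, 104.7 and 85.6 TPM in DBA/1J and 79.1, 80.7 and 73.3 TPM in C57BL/6J.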
